A study of Rattus norvegicus with 21 samples.

Results

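Gene expression in the liver of rats given a high weekly dose of diethylnitrosamine (DEN) for 12 weeks was compared with that of rats given a weekly dose of 50 mg/kg for 18 weeks. The members were the 3 arrays titled for week 12 and DEN 100 (arrays DEN_111, DEN_112 and DEN_113) and the 3 titled for week 18, DEN 50 and vehicle (arrays DEN_24, DEN_59 and DEN_69), which makes 6 of the 21 arrays of the series, and every measured gene was compared. All rats were male Wistar rats, DEN was injected into the peritoneum once a week, and RNA came from non-tumour liver taken after a washout of 1 week. The labels give no age. The DEN 100 rats received 100 mg/kg and no second injection. The DEN 50 vehicle rats received 50 mg/kg and, in the later weeks, injections of the vehicle of erlotinib, an EGFR kinase inhibitor given to other rats. Per the labels, the vehicle rats come from 2 studies that were combined, and no study is named for any of them. Multiplying dose by week gives a nominal cumulative dose of 1200 mg/kg for DEN 100 and 900 mg/kg for DEN 50 vehicle. Weekly dose and nominal cumulative dose were therefore both higher in DEN 100 and cannot be told apart in this comparison, while the time of exposure was longer in DEN 50 vehicle. The other groups used, with 3 arrays each, are given beside them: PBS week 12 and PBS week 18, which received PBS in place of DEN and no vehicle, and DEN 50 week 12, with a nominal cumulative dose of 600 mg/kg and no vehicle.

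DEN is a nitrosamine that cytochrome P450 enzymes of the hepatocyte, chiefly Cyp2e1, turn into a reactive species that alkylates DNA. Repeated dosing of rats is a classical model of liver injury, fibrosis and cancer. Alkylated DNA is known to activate p53, a transcription factor whose targets halt the cell cycle or start repair, and foci of altered hepatocytes in DEN-treated rats are classically marked by the placental glutathione S-transferase Gstp1. The liver also makes most plasma proteins, bile acids and drug-metabolising enzymes, and in male rats the pulses of growth hormone maintain a set of male-biased genes. In bulk tissue, fewer cells of a type and less RNA per cell cannot be told apart.

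Levels are log2 normalized intensities from bead arrays with 22523 probes, of which 19339 features (12112 with a gene name, 7227 without) were tested. A level at or below 6.38 is near background. Raw array medians ran from 105 to 186.9, and the number of arrays limits the precision. Correlations between arrays were 0.977 to 0.982 within DEN 100, 0.975 to 0.988 within DEN 50 vehicle and 0.963 to 0.980 between them. Array DEN_24 of the vehicle group stood apart on the third principal component (4.85% of the variance), at 34.5 against -1.13 and -0.27 for its companions. Of 8 hepatocyte markers, 7 were measured, 6 lay above background in both groups, and 1 (Cyp2e1) was called between them. The marker near background was Hnf4a, at 6.20 in DEN 100 and 6.48 in DEN 50 vehicle. Each array carries its own number, but nothing in the labels says that the arrays of a group are separate animals, so the p-values measure the spread between these arrays, which may be technical.

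In DEN 100 livers, 23 of 58 genes of coagulation, complement and secreted proteins and 9 of 28 male-biased genes were lower than in DEN 50 vehicle livers, and 6 of 25 p53 targets were higher. A feature was called where limma's moderated test, fitted over all 21 arrays, gave a Benjamini-Hochberg adjusted p under 0.05. On this rule 395 of 19339 features (2.04%) differed, 154 higher (0.796%) and 241 lower (1.25%) in DEN 100. Of the 309 called features with a gene name, 115 were higher and 194 lower, and the arrays of the groups did not overlap for 304 of them. Over all features, the arrays did not overlap for 2722 (14.1%), and the median log2 difference was 0.01. Among 1180 measured members of 48 gene lists, 26 were higher and 84 lower. Scaling each array to its median in place of quantile normalization left 95 calls, of which 17.89% were higher against 38.99% here. Fitted on the 6 compared arrays alone, with their own estimate of the spread, 20 features were called.

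**Figure D1:**
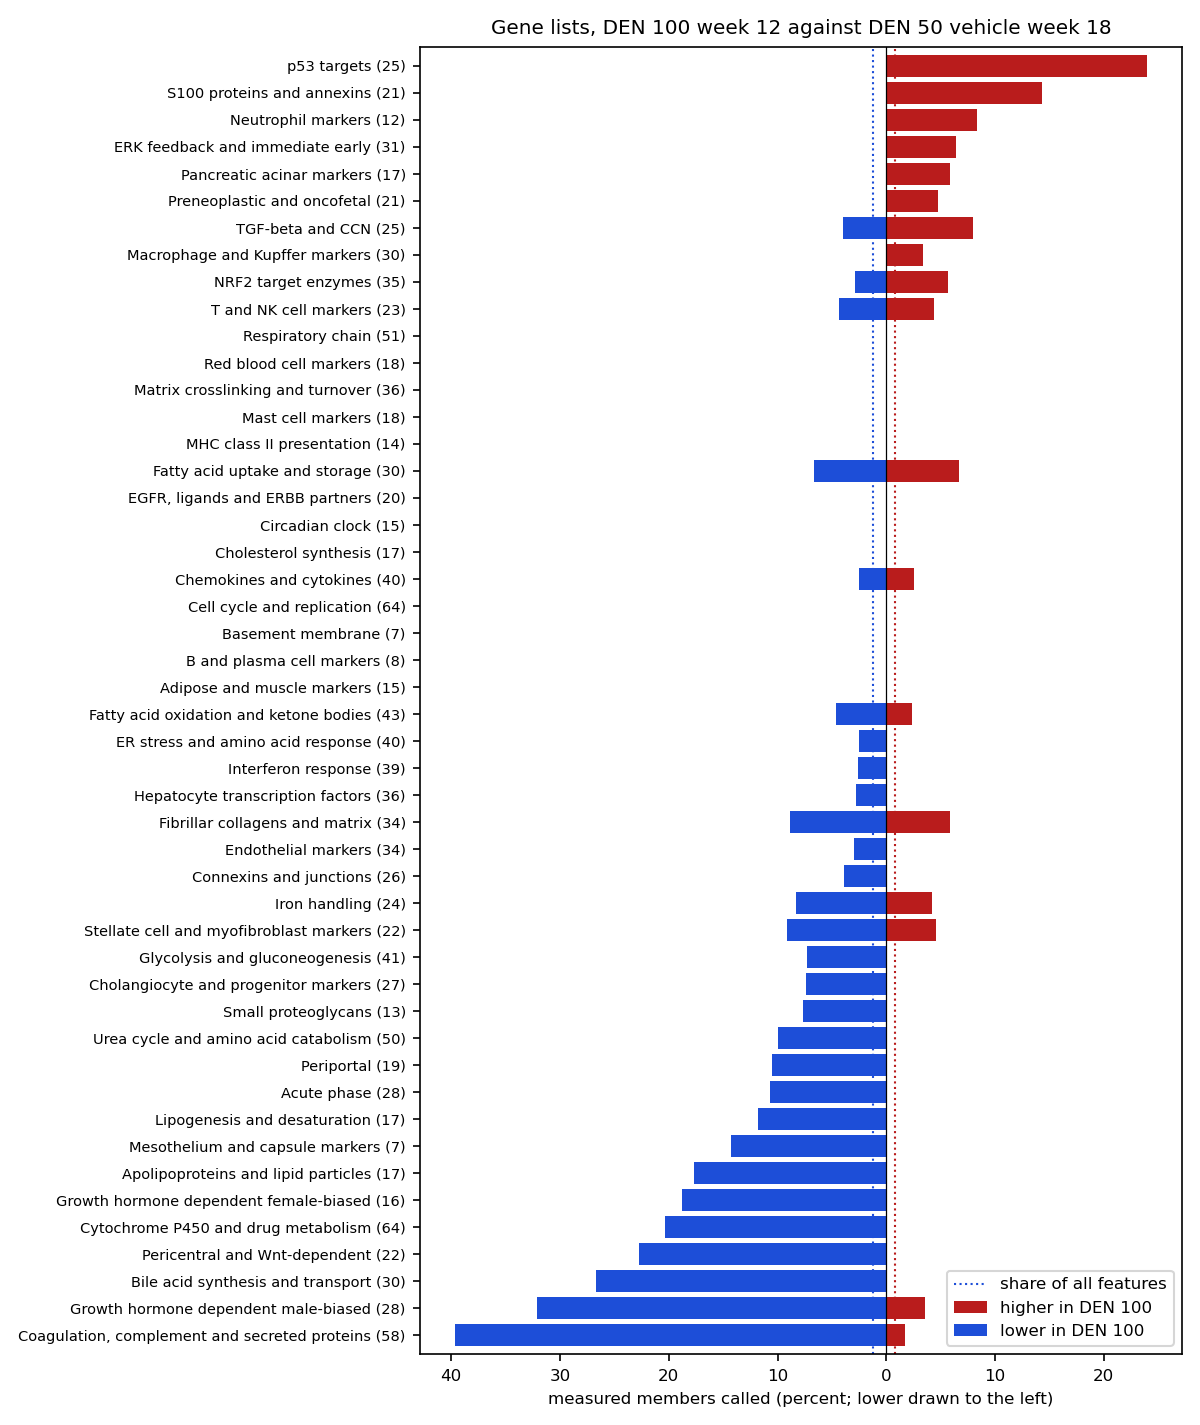
Percent of the measured members of each of 48 gene lists (number measured in brackets) called higher (red, to the right) or lower (blue, to the left) in DEN 100 week 12 than in DEN 50 vehicle week 18, adjusted p under 0.05; dotted lines mark the shares of all 19339 features, 0.796% higher and 1.25% lower. Coagulation, complement and secreted proteins had 23 of 58 members lower, and p53 targets had 6 of 25 members higher.

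Among named genes, the lowest differences were those of Mup5 and Car3, both male-biased. A called probe without a gene name was lower still (-5.04). Of 28 measured genes that depend on growth hormone in male rats, 9 were lower in DEN 100 (1.25% of all features) and 1 higher (0.796%). Their median was -0.60 against 0.01 over all features. Mup5, a member of the major urinary protein (alpha2u-globulin) family of male pheromone carriers, measured 6.92, 7.24 and 6.74 in DEN 100 and 14.92, 11.99 and 8.85 in DEN 50 vehicle. The vehicle arrays were spread over 6 log2 units, from array DEN_24 at the PBS level to array DEN_69, yet all lay above the DEN 100 arrays. Mup5 was 30.9-fold lower in DEN 100 (log2 difference -4.95, SE 0.84, adjusted p = 0.0016). This SE pools the spread over 7 groups, while the SD of Mup5 was 3.03 in DEN 50 vehicle and 0.25 in DEN 100. Fitted by limma on the compared arrays alone, Mup5 was not called (adjusted p = 0.25). Its relatives Mup4 (-3.69, adjusted p = 0.028) and Mup4l4 (-3.87, adjusted p = 0.017) showed the same order of the vehicle arrays. A further probe of Mup4l4 gave -1.62 (adjusted p = 0.45). Probes of this family may share transcripts, so their values are uncertain as to the member. Without array DEN_24 the difference of Mup4 was -2.14 (adjusted p = 0.12) and that of Mup4l4 -2.37 (adjusted p = 0.066), and the call of Mup4 was also lost without any one of arrays DEN_111, DEN_112, DEN_113 and DEN_59.

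The promoters of these 3 genes are printed because the genes moved together and each holds the letters TTNCGCAA, a core of the C/EBP binding motif, on the strand opposite to the one printed. C/EBP factors are liver transcription factors. The windows start upstream of the gene start and end shortly after it in RefSeq GRCr8, minus strand, and lie on chromosome 5 at chr5:79999646-79999945 (Mup5), chr5:79759447-79759746 (Mup4) and chr5:79707758-79708057 (Mup4l4). Capitals mark the match, which begins 224 bases before the start in Mup5, 223 in Mup4 and 231 in Mup4l4.
Mup5: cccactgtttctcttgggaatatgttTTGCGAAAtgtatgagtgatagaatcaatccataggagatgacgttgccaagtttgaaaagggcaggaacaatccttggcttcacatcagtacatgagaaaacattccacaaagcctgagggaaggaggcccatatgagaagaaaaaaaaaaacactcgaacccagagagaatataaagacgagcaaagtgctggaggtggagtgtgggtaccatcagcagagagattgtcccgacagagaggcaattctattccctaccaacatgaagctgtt
Mup4: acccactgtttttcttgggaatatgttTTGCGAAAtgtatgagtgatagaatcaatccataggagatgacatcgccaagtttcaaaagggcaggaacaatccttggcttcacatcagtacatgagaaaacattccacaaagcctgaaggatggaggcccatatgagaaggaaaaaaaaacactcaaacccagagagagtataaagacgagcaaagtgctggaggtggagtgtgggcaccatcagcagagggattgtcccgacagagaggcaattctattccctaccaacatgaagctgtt
Mup4l4: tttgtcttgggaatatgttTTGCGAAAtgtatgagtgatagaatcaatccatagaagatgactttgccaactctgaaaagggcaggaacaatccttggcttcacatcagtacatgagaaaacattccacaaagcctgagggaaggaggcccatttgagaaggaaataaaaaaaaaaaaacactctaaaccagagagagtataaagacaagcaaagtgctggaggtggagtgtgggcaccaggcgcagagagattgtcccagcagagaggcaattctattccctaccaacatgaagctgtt
The letters TTNCGCAA occur on either strand in 0.846% of 33469 such windows. The 3 genes are of 1 family and their windows are largely alike, so these are not 3 independent matches. Windows were found for 15 of the 10 lowest and 10 highest genes, and no other of these held the letters. Nor did any of the 16 windows found for the lower secreted protein genes. All 3 Mup windows also hold TGACNNNGC, the NRF2 core, found in 12.1% of windows. A match describes the sequence and is not a binding site.

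Car3, the carbonic anhydrase of male rat liver and muscle, measured 7.90, 6.42 and 7.39 in DEN 100 and 12.85, 11.54 and 10.40 in DEN 50 vehicle. These groups were separated by more than 2 log2 units at their nearest arrays. Car3 was 20.6-fold lower (log2 difference -4.36, SE 0.46, adjusted p = 9.5e-06). Cyp2c13, a male-specific P450, was at 10.13, 8.76 and 10.23 against 13.62, 13.13 and 11.40, again without overlap (-3.01, SE 0.38, adjusted p = 8.1e-05). Rgn, which encodes regucalcin, a calcium-binding lactonase of hepatocytes, had tight replicates: 9.10, 9.34 and 9.52 in DEN 100 and 12.39, 11.90 and 12.14 in DEN 50 vehicle. It was 7.06-fold lower (log2 difference -2.82, SE 0.18, adjusted p = 8.1e-09). Rgn kept its call under each of the 16 alternatives run for single genes, as did Hsd17b2, the hydroxysteroid dehydrogenase that oxidises sex steroids (-2.49, adjusted p = 0.0013). Cyp2c11, the principal male-specific P450, did not pass the test (-1.70, adjusted p = 0.46): it stood near background in DEN 100 (6.33 ± 0.17, SD, n = 3) and at 8.03 ± 2.08 (SD, n = 3) in DEN 50 vehicle, so the difference there is limited by the floor. Rup2 was the member that was higher (1.12, adjusted p = 7.3e-05). Without array DEN_24 the list had 5 members lower and a median of -0.29, and without array DEN_113 or DEN_59 it also had 5 lower.

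**Figure D2:**
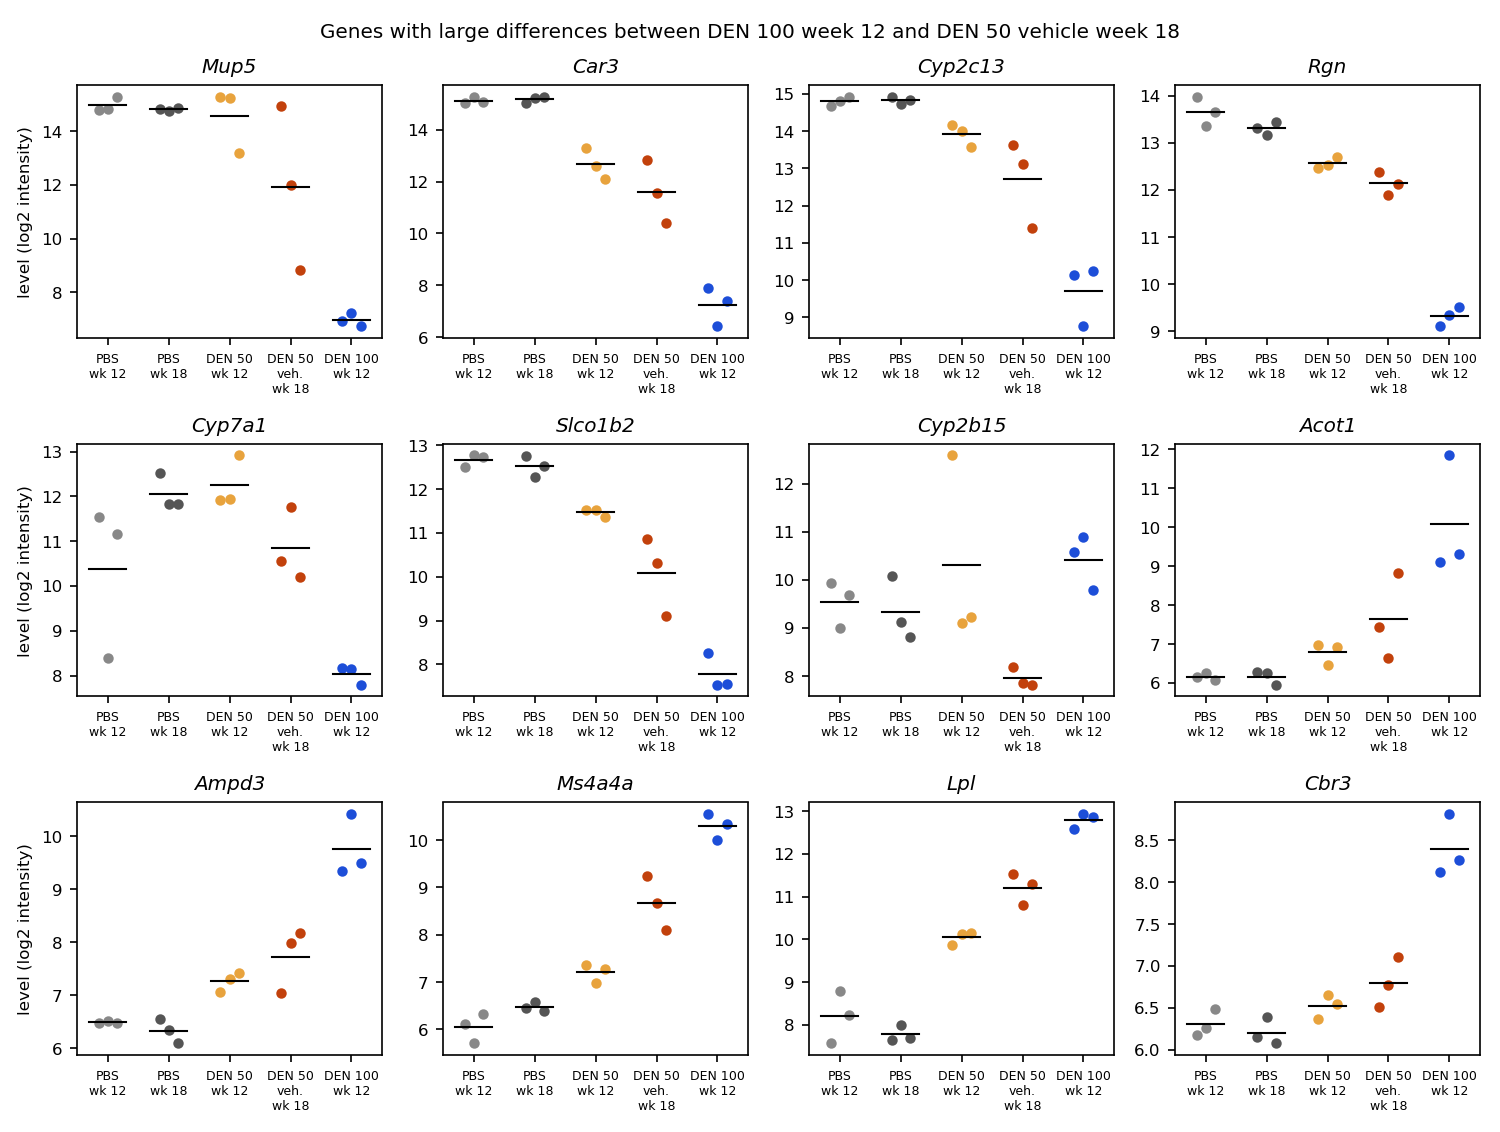
Levels (log2 intensity) of 12 genes on each array of 5 groups of 3, with a line at the group mean; veh. stands for vehicle. Mup5, Car3, Cyp2c13, Rgn, Cyp7a1 and Slco1b2 were lower in DEN 100 week 12 (blue) than in DEN 50 vehicle week 18 (red). Cyp2b15, Acot1, Ampd3, Ms4a4a, Lpl and Cbr3 were higher. The 12 genes were picked from calls whose arrays did not overlap, so the lack of overlap in the panels follows from the choice.

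Bile acid synthesis and uptake were represented by 30 measured genes. In DEN 100, 8 of them were lower (1.25% of all features) and none higher (median -0.44). Cyp7a1, which catalyses the rate-limiting step from cholesterol to bile acids, measured 8.17, 8.15 and 7.79 in DEN 100 and 10.56, 11.75 and 10.20 in DEN 50 vehicle, so that the groups lay apart (-2.80, SE 0.57, adjusted p = 0.0087). Its PBS level differed between weeks, at 10.37 ± 1.72 (SD, n = 3) in week 12 and 12.05 ± 0.40 (SD, n = 3) in week 18. Relative to PBS of the same week, the difference of Cyp7a1 was -1.12 (adjusted p = 0.67). Slco1b2, the sinusoidal transporter that takes up bile acids and drugs, was at 8.26, 7.53 and 7.55 against 10.87, 10.31 and 9.09 (-2.31, SE 0.29, adjusted p = 6.3e-05). The sodium-dependent bile acid transporter Slc10a1 was at 9.29, 9.85 and 9.05 against 11.73, 11.84 and 10.81 (-2.06, SE 0.21, adjusted p = 8e-06). For both transporters each DEN 100 array lay below each vehicle array. Slc27a5 (-1.85, adjusted p = 0.039) and Baat (-1.73, adjusted p = 9.5e-06), which activate and conjugate bile acids, were also lower. The call of Cyp7a1 was lost without array DEN_59 (-2.34, adjusted p = 0.059), and that of Slc27a5 without array DEN_113 (-1.11), DEN_24, DEN_59 or DEN_69.

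Of 64 measured genes of P450 and drug metabolism, 13 were lower and none higher (median -0.46). Cyp2e1, which activates DEN, measured 12.02, 13.49 and 11.92 in DEN 100 and 14.01, 14.71 and 14.14 in DEN 50 vehicle. The highest DEN 100 array stayed below the lowest vehicle array, and the difference was -1.81 (SE 0.27, adjusted p = 0.00043). Cyp1a2, an enzyme of caffeine and arylamine oxidation, was lower by -1.94 (SE 0.44, adjusted p = 0.019), and Cyp3a2, a male-predominant steroid hydroxylase, by -2.88 (SE 0.70, adjusted p = 0.031) with overlapping arrays. Further called members were Cyp2c22 (-1.19) and Fmo1 (-1.26). Cyp1a2 lost its call without array DEN_113 or DEN_24, Cyp3a2 without array DEN_112, DEN_113, DEN_24 (-1.91) or DEN_59, and Fmo1 without array DEN_111. Among 22 genes expressed around the central vein (median -0.18), 5 were lower and none higher, namely Rgn, Cyp7a1, Cyp1a2, Cyp2e1 and Cyp27a1. Among 19 periportal genes 2 were lower and none higher, namely Pigr (-1.46), the receptor that carries IgA into bile, and Ftcd (-0.78). The median of the periportal list was 0.18, opposite in sign to these 2 genes. Of all features, 1.25% were lower. Without array DEN_113, 8 P450 and drug metabolism genes were lower and 1 higher.

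Plasma protein genes were the list with the largest share of calls. Of 58 measured genes of coagulation, complement and other secreted proteins, 23 were lower in DEN 100 (1.25% of all features) and 1 higher (0.796%), with a median of -0.60. Hrg, the histidine-rich glycoprotein of plasma, measured 12.20, 11.82 and 11.29 in DEN 100 and 13.45, 14.13 and 13.89 in DEN 50 vehicle, and was 4.16-fold lower (log2 difference -2.06, SE 0.18, adjusted p = 7e-07). Klkb1, plasma prekallikrein, was at 9.79, 9.04 and 9.38 against 11.19, 11.03 and 10.95 (-1.66, SE 0.19, adjusted p = 2.5e-05). The 3 arrays of each group lay more than 1 log2 unit apart for both genes. Complement factor B, Cfb, was at 12.74, 12.14 and 11.60 against 13.68, 13.67 and 13.80 (-1.56, adjusted p = 3e-05), and vitronectin, Vtn, was lower by -1.65 (adjusted p = 0.0056), or by -0.99 without array DEN_113. The remaining lower members were Plg, Itih4, Itih1, C9, Itih3, F13b, C6, Proc, Pon1, Cpb2, C1s, C2, Mbl2, F2, F11, F5, Masp2, Igfals and Ambp, with differences from -1.36 to -0.56. Itih4 (-1.25) was at -0.63 without array DEN_113, and its call was lost without array DEN_24, DEN_59 or DEN_69. The higher member was Apcs, serum amyloid P (0.70). Albumin did not pass the test (Alb, -0.29, SE 0.17, adjusted p = 0.57), and its other probe gave 0.09. The Alb difference was 0.16 with median scaling and 0.29 with scaling on bright probes, so its direction depended on the scaling.

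**Figure D3:**
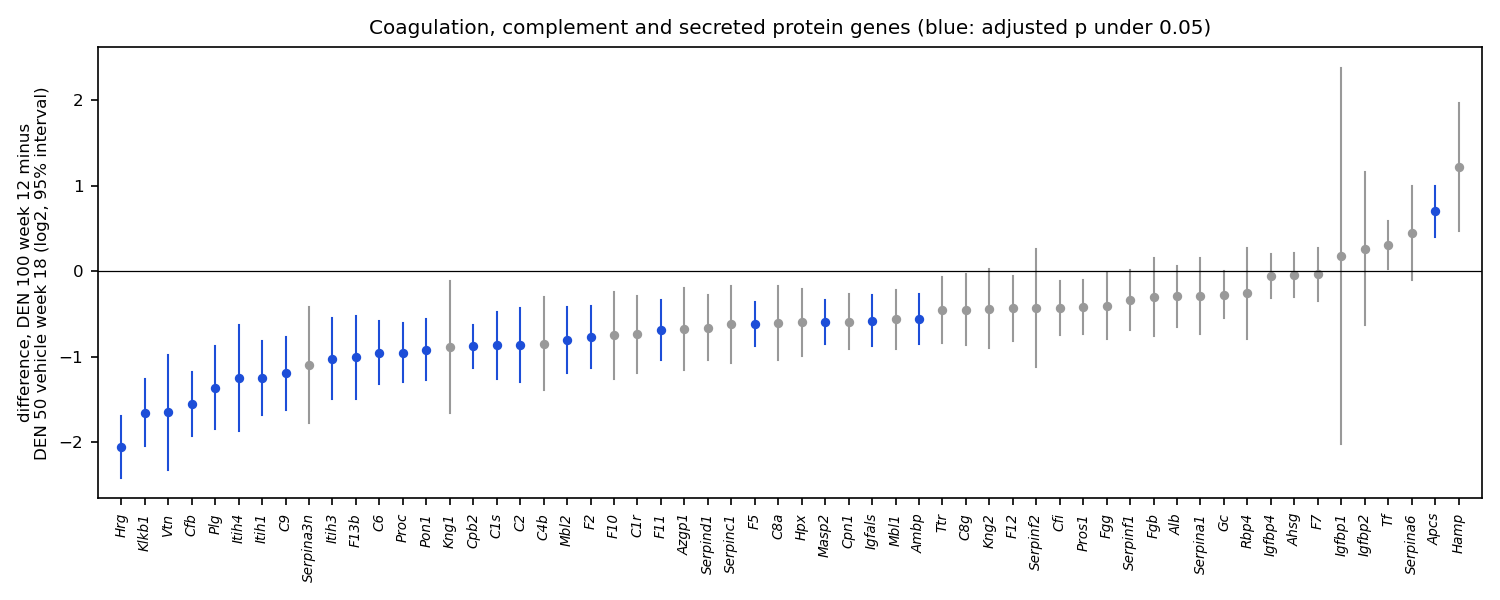
Log2 difference, DEN 100 week 12 minus DEN 50 vehicle week 18, for each of the 58 measured genes of coagulation, complement and secreted proteins, with 95% intervals from the fit over all arrays; blue points passed at adjusted p under 0.05. All but 1 of the 24 blue points lie below 0, from Hrg at -2.06 to Ambp at -0.56, and Apcs at 0.70 lies above it.

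The mean level of the secreted protein list was 11.77, 11.72 and 11.09 on the DEN 100 arrays and 12.09, 12.24 and 12.06 on the vehicle arrays. Array DEN_113 was the lowest of the 6. Without array DEN_113, 15 members were lower, with a median of -0.37. Without array DEN_59 the count was also 15. Against PBS of the same week, 44 of the 58 were lower in DEN 100 (9.81% of all features) and 30 in DEN 50 vehicle (8.73%), with medians of -1.37 and -0.67. DEN 50 week 12 differed from PBS week 12 in 10.9% of all features, and 16 of the 58 were lower (5.13% of all features) with a median of -0.28. Between DEN 100 and DEN 50 week 12, which share the week and differ in dose, 40 were lower (4.31%) and 2 higher (5.07%). Between DEN 50 vehicle and DEN 50 week 12, 4 were lower (0.393%) and none higher. Promoter windows were found for 16 of the 23 lower members, and GTTAATNATT, the HNF1 core, lay in those of F13b and Plg (0.335% of all windows). The p53 half-site lay in 4 of the 16, those of F5, Itih1, Klkb1 and Proc (7.98% of all windows).

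Other hepatocyte pathways gave fewer calls. Of 50 measured genes of the urea cycle and amino acid catabolism, 5 were lower and none higher: Kmo of the tryptophan pathway (-1.52, adjusted p = 0.0016), Csad of taurine synthesis (-1.17), Agxt2 (-1.10), the urea cycle enzyme Otc (-0.90) and Ftcd (-0.78). Ftcd lost its call without array DEN_111, DEN_113, DEN_24, DEN_59 or DEN_69, and Agxt2 without array DEN_111, DEN_113, DEN_59 or DEN_69. Their list median was -0.21, and without array DEN_113 it was -0.02 with 3 members higher and 3 lower. In fat metabolism, Thrsp, a nuclear protein linked to lipogenesis, was at 10.45, 8.73 and 10.68 in DEN 100 and 12.78, 12.79 and 10.75 in DEN 50 vehicle. Its nearest arrays differed by less than 0.1, and the call (-2.15, SE 0.51, adjusted p = 0.024) was lost without array DEN_112, DEN_24 or DEN_59. The desaturase Fads1 was lower in DEN 100 (-1.24, adjusted p = 0.0043), and Bdh1, which interconverts the ketone bodies, was lower by -1.52 (SE 0.14, adjusted p = 2.2e-06) and was called under each of the 16 alternatives run for it. None of 17 cholesterol synthesis genes or 51 respiratory chain genes was called, where 2.04% of all features were. Their medians were -0.28 and 0.13. Against PBS of the same week, 14 of the cholesterol genes were lower in DEN 100 (9.81% of all features) and 13 in DEN 50 vehicle (8.73%). Among 36 hepatocyte transcription factors, Rxrg was lower (-1.03) and none was higher.

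Of 25 measured p53 targets 6 were higher in DEN 100, where 0.796% of all features were, and none was lower. The list median was 0.17. Ccng1, cyclin G1, measured 12.22, 12.85 and 13.06 in DEN 100 and 11.60, 11.45 and 11.16 in DEN 50 vehicle, and was 2.47-fold higher (log2 difference 1.31, SE 0.23, adjusted p = 0.002). Phlda3, a p53-induced repressor of Akt, was at 11.03, 10.25 and 10.78 against 9.42, 9.35 and 9.14 (1.39, SE 0.23, adjusted p = 0.0013). No vehicle array reached the lowest DEN 100 array in either gene. Cdkn1a, the cell cycle inhibitor p21, was at 7.31, 7.50 and 7.65 against 6.61, 6.85 and 6.50 (0.83, SE 0.14, adjusted p = 0.002). Mdm2, the ubiquitin ligase that restrains p53, was at 10.51, 10.84 and 11.20 against 9.69, 10.08 and 10.04 (0.92, SE 0.20, adjusted p = 0.016). Both separated the groups, each by less than 0.5 log2 units at its nearest arrays. The nuclease Aen was higher by 0.77 (adjusted p = 0.0069), and the stress cytokine Gdf15 by 1.50 (SE 0.36, adjusted p = 0.03).

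The other 19 targets did not pass, among them Bax (-0.17, adjusted p = 0.71), Gadd45a (0.70, adjusted p = 0.48) and Perp (0.68, adjusted p = 0.23). The mean level of the p53 list was 8.23, 8.19 and 8.20 on the DEN 100 arrays and 7.75, 7.87 and 7.81 on the vehicle arrays. Gdf15 lost its call without array DEN_111, DEN_113, DEN_24 or DEN_59, and Mdm2 without array DEN_113 or DEN_24, which left 4 called targets without array DEN_113 and 4 without array DEN_24. Median scaling left 1 called target, bright-probe scaling 2 and the 6 arrays alone 0, where 95, 139 and 20 of all 19339 features were called. Against PBS week 12, 9 of 25 targets were higher in DEN 100 (11.5% of all features). Against PBS week 18, 3 were higher in DEN 50 vehicle (9.51%), and 3 were higher in DEN 50 week 12 against PBS week 12 (5.77%).

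The promoters of Cdkn1a, Ccng1 and Aen are printed because these 3 of the 6 higher targets hold a p53 half-site, which occurs in 7.98% of 33469 windows of RefSeq GRCr8. They lie at chr20:7150682-7150981 on the plus strand (Cdkn1a), chr10:25684827-25685126 on the minus strand (Ccng1) and chr1:142224283-142224582 on the plus strand (Aen). Capitals mark the half-site, which begins 201, 232 and 30 bases before the gene start.
Cdkn1a: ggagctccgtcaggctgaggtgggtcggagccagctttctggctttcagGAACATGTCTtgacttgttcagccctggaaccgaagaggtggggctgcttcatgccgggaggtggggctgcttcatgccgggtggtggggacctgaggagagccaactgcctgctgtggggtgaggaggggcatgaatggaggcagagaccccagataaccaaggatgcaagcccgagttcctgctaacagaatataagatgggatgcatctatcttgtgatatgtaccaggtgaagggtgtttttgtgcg
Ccng1: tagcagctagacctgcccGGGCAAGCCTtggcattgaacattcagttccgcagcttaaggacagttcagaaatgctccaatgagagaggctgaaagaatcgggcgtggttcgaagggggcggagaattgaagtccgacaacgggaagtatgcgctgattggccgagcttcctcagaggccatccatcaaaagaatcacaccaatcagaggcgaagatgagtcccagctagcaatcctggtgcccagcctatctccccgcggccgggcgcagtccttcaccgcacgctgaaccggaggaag
Aen: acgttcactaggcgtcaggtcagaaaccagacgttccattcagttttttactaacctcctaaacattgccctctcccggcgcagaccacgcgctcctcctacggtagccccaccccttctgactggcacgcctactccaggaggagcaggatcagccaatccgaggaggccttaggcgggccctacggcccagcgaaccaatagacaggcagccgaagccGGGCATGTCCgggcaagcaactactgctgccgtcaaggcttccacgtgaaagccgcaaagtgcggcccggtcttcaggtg
Mdm2, Phlda3 and Gdf15 hold no such letters in this window.

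The named genes with the largest differences among those higher in DEN 100 included Cyp2b15, Acot1, Ampd3, Ms4a4a, Ccl21, Cbr3 and Lpl. Acot1, a cytosolic acyl-CoA thioesterase, measured 9.10, 11.84 and 9.32 in DEN 100 and 7.43, 6.65 and 8.83 in DEN 50 vehicle. Arrays DEN_112 and DEN_59 were the extremes, and without array DEN_112 the difference of 2.45 (SE 0.55, adjusted p = 0.018) became 1.57 (adjusted p = 0.073). The call was also lost without array DEN_24 or DEN_59. Ampd3, an AMP deaminase, was at 9.35, 10.42 and 9.49 against 7.04, 7.98 and 8.18 (2.02, SE 0.28, adjusted p = 0.00016). The carbonyl reductase Cbr3 was at 8.13, 8.81 and 8.26 against 6.51, 6.78 and 7.10 (1.61, SE 0.17, adjusted p = 8.2e-06), which separated the groups by 1 log2 unit. Its relative Cbr1 was also higher (1.49, adjusted p = 0.011), and without array DEN_112 or DEN_24 it was not called. Lpl, lipoprotein lipase, was at 12.58, 12.93 and 12.87 against 11.54, 10.80 and 11.30, without overlap (1.58, SE 0.26, adjusted p = 0.0012).

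Cyp2b15, of the Cyp2b family, was at 10.58, 10.89 and 9.79 against 8.18, 7.86 and 7.82 (2.47, SE 0.58, adjusted p = 0.024). PBS arrays averaged 9.53 in week 12 and 9.34 in week 18, between the DEN groups, and the difference of neither DEN group from its PBS group passed (adjusted p = 0.34 and 0.11). Cyp2b15 lost its call without array DEN_111, DEN_112, DEN_59 or DEN_69. Phlda2, an imprinted gene, was higher by 1.53 (SE 0.25, adjusted p = 0.0012), with 8.31, 8.76 and 9.12 against 6.85, 7.13 and 7.60. Ctse, the protease cathepsin E, was higher by 1.52 (SE 0.39, adjusted p = 0.041) and lost its call without array DEN_111, DEN_112, DEN_24 or DEN_59.

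Matrix genes went both ways. Of 34 measured genes of fibrillar collagens and matrix, 2 were higher (0.796% of all features) and 3 lower (1.25%), with a median of -0.11. Mgp, matrix Gla protein, was at 12.78, 11.70 and 12.02 in DEN 100 and 10.46, 11.48 and 10.88 in DEN 50 vehicle, close at its nearest arrays (1.22, SE 0.30, adjusted p = 0.031), and was not called without array DEN_111, DEN_24 or DEN_69. Ltbp1, which tethers latent TGF-beta, was higher by 0.69 (adjusted p = 0.016). Col14a1, a fibril-associated collagen, was at 9.19, 8.89 and 9.48 against 10.94, 10.31 and 10.85 (-1.52, SE 0.17, adjusted p = 2e-05). The DEN 100 arrays of Col14a1 lay below every array of the PBS and DEN 50 groups. Col8a1 (-0.89, adjusted p = 0.031) and Col5a1 (-0.64) were the other lower members. The call of Col8a1 was lost without array DEN_111, DEN_113, DEN_59 or DEN_69, and that of Ltbp1 without array DEN_111 or DEN_69. Of the fibrosis genes chosen by name, none of the next 4 was called: Col1a1 -0.21 (95% interval -0.50 to 0.09), Col1a2 -0.51 (-1.04 to 0.02), Timp1 0.05 (-0.38 to 0.49) and Tgfb1 -0.03 (-0.45 to 0.40). Of 21 S100 proteins and annexins, 3 were higher (0.796% of all features) and none lower (median 0.29). S100a6 was at 11.15, 10.55 and 10.68 against 9.89, 9.91 and 9.95 (0.88, SE 0.16, adjusted p = 0.0038). Anxa1 was higher by 0.79 (adjusted p = 0.032) and S100a16 by 0.63, and Anxa1 lost its call without array DEN_111, DEN_24, DEN_59 or DEN_69. Id1, a BMP-induced inhibitor of DNA-binding factors, was higher by 1.19 (adjusted p = 0.00047), and the transcription factor Klf4 by 0.76 (adjusted p = 0.0012).

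Markers of other cell types are given by list, where 2.04% of all features were called (0.796% higher and 1.25% lower). Of 30 macrophage and Kupffer cell markers 1 was higher, Ms4a4a, a membrane protein of macrophages, at 10.55, 10.01 and 10.35 against 9.23, 8.67 and 8.10 (1.63, SE 0.23, adjusted p = 0.00019). The other 29 were not called, and the list median was -0.11. The mean level of these markers ran from 8.58 to 9.17 in DEN 100 and from 8.81 to 9.14 in DEN 50 vehicle. Of 34 endothelial markers 1 was lower, Oit3, which sinusoidal endothelial cells express, at 7.55, 7.81 and 7.99 against 10.12, 8.81 and 9.36 (-1.65, SE 0.23, adjusted p = 0.0002). Endothelial marker means were 7.48 to 7.61 and 7.53 to 7.60. Among 40 chemokines and cytokines, Ccl21, the CCR7 ligand, was higher (1.62, SE 0.23, adjusted p = 0.00024) and Cxcl9, an interferon-gamma-induced T cell attractant, lower (-1.46, SE 0.31, adjusted p = 0.013). Cxcl9 was at 9.61, 8.98 and 9.79 against 10.68, 11.28 and 10.78, and lost its call without array DEN_112 or DEN_59. Ccl21 has near-identical copies in rodents, so its probe is uncertain as to the copy.

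Of 22 stellate cell and myofibroblast markers, 1 was higher and 2 lower, with mean levels of 7.82 to 8.04 and 7.95 to 8.0. Of 27 cholangiocyte and progenitor markers, 2 were lower, Cp (-1.64, adjusted p = 6.3e-05), the copper carrier ceruloplasmin that hepatocytes also secrete, and Cldn3 (-0.96, adjusted p = 0.012). Cldn3 was at -0.62 without array DEN_113, and lost its call with median scaling and on the compared arrays alone. The mean of the 27 markers ran from 8.42 to 9.07 in DEN 100 and 8.28 to 8.68 in DEN 50 vehicle. Krt19, the ductular keratin, did not pass (1.0, SE 0.42, adjusted p = 0.34). T and NK cell markers had 1 higher (Zap70, 0.48) and 1 lower (Il7r, -0.46) of 23. The neutrophil list had 1 higher of 12 (Pglyrp1, 1.25), the pancreatic acinar list 1 higher of 17 (Ctrc, 1.29; 11 of the 17 near background in both groups) and the mesothelium list 1 lower of 7 (Gpm6a, -0.62). Ctrc was at 0.69 without array DEN_113 and 0.99 without array DEN_24, and Pglyrp1 at 0.74 without array DEN_24 and 1.14 without array DEN_111, none of them called. Zap70, Il7r and Gpm6a each lost the call without any one of at least 4 of the 6 compared arrays. None of 18 mast cell, 8 B and plasma cell, 18 red blood cell, 14 MHC class II or 15 adipose and muscle genes was called. Of all features, 2.04% were. The part of cell makeup in the differences above was not tested.

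No proliferation gene passed the test, nor did Gstp1, Gpc3 and Afp, which mark altered foci and tumours. None of 64 cell cycle and replication genes was called (median 0.08), where 2.04% of all features were. At that share a list of this size holds few calls or none. Against PBS of the same week, 37 of these genes were higher in DEN 100 (11.5% of all features) and 34 in DEN 50 vehicle (9.51%). Cdk1, the mitotic kinase, was at 9.27, 8.97 and 9.33 in DEN 100 and 7.92, 9.11 and 9.23 in DEN 50 vehicle, and array DEN_24 was the low one (0.43, 95% interval -0.08 to 0.95, adjusted p = 0.55). Gstp1 was at 14.11, 13.89 and 14.25 against 13.70, 14.52 and 14.80, from 7.37 and 7.32 in PBS. The arrays overlapped, and the Gstp1 difference was -0.26 (95% interval -0.90 to 0.39, adjusted p = 0.84). Nqo1, an NRF2-driven quinone reductase, differed by 0.25 (-0.36 to 0.85), with array DEN_24 at 12.04 and the other 5 arrays between 13.14 and 13.50. Gpc3, the oncofetal proteoglycan glypican-3, was at 10.98, 10.34 and 10.49 against 10.17, 10.24 and 9.88. Its arrays did not overlap, and its difference of 0.51 (0.18 to 0.84) did not pass (adjusted p = 0.12). Afp, the fetal albumin, was at 9.18 ± 0.23 and 9.93 ± 0.64 (SD, n = 3 each; -0.75, adjusted p = 0.094). Of 35 NRF2 target enzymes 2 were higher, Cbr3 and Cbr1, and 1 lower, Akr7a2 (-0.68). None of 20 genes of EGFR, its ligands and partners was called (Egfr, -0.23, 95% interval -0.75 to 0.29).

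**Figure D4:**
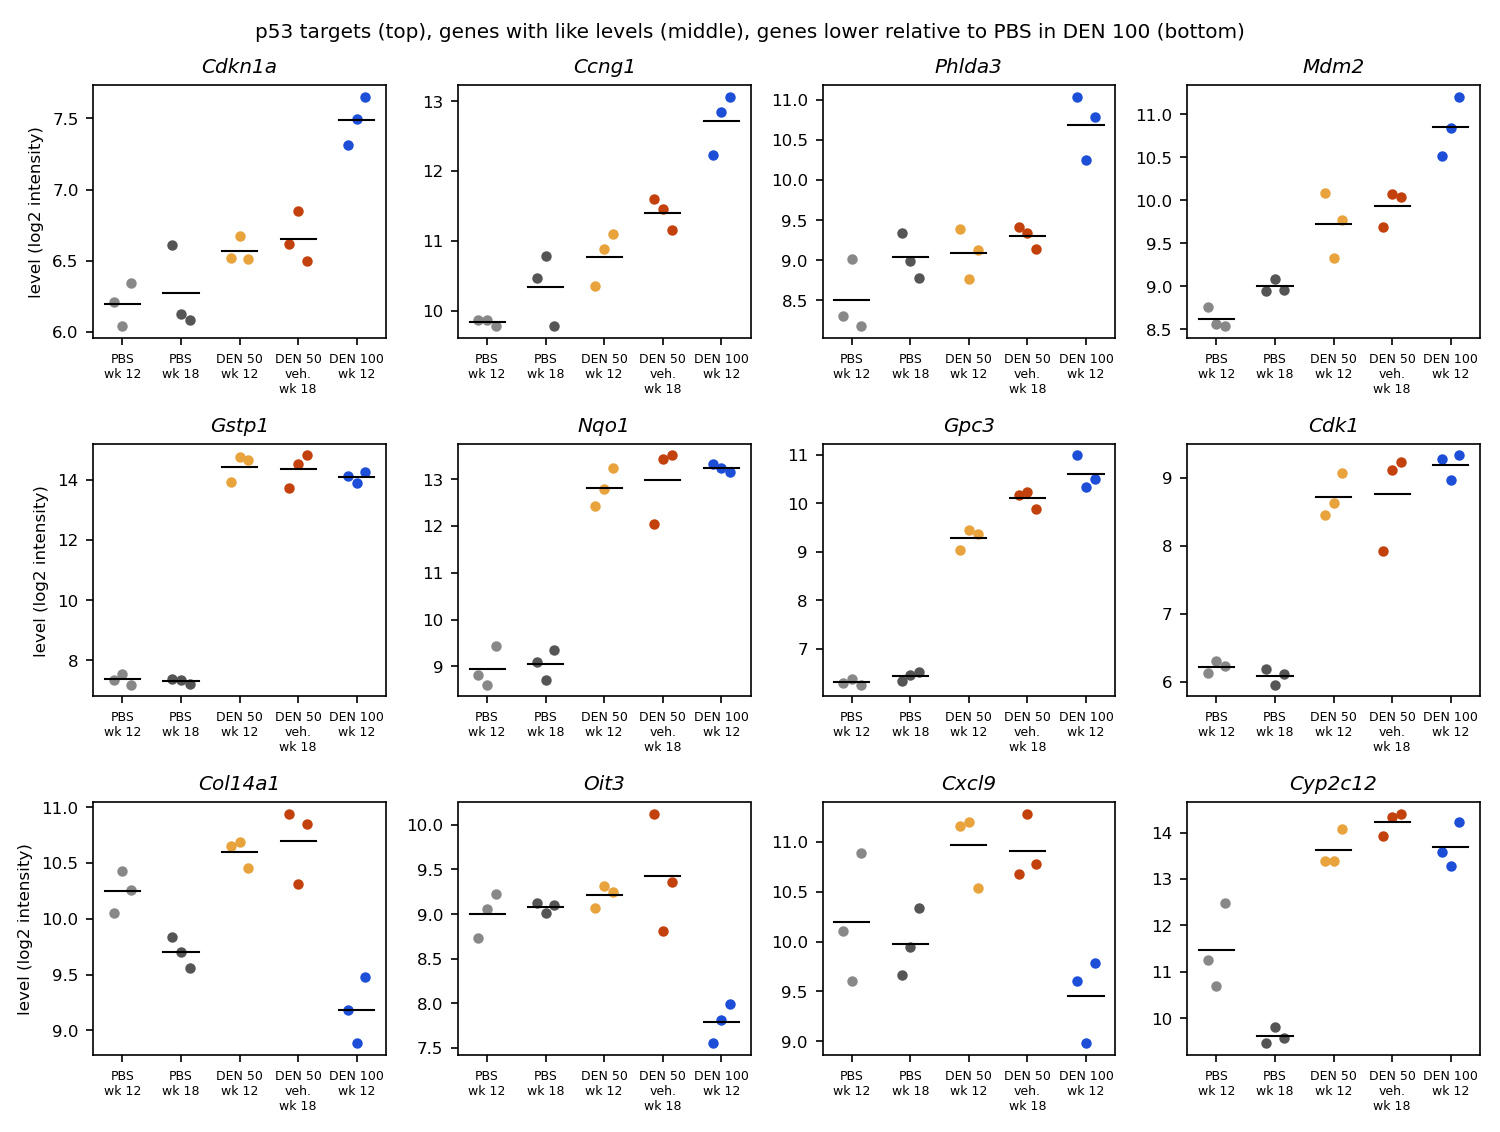
Levels (log2 intensity) of 12 genes on each array of 5 groups of 3, with a line at the group mean. The p53 targets in the top row had their highest group mean in DEN 100 week 12 (blue), Gstp1, Nqo1, Gpc3 and Cdk1 in the middle row did not pass the test against DEN 50 vehicle week 18 (red), and in the bottom row Col14a1, Oit3 and Cxcl9 were lower in DEN 100 while Cyp2c12 was not called.

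Each group was then set against PBS arrays of its own week, which share no array. DEN 100 differed from PBS week 12 in 4114 features (21.3%) and DEN 50 vehicle from PBS week 18 in 3528 (18.2%). Higher in both were 1416 features and lower in both 1132, which makes 61.9% of the calls of DEN 100 and 72.2% of those of DEN 50 vehicle. Across all features the changes correlated with Pearson's r of 0.858 and Spearman's rho of 0.595, as a description over features, which are not independent replicates. Of 2022 named genes called in the same direction in both, 1648 had a 95% interval of the difference between the DEN groups within 1 log2 unit of 0. Those with the largest changes in both were Gstp1, Gsta3 (0.20), Anxa2 (0.03), Nqo1, Pcp4 (0.37), Tceal9 (0.45) and Gpc3 among the higher ones, and Stac3 (-0.19), Olr59 (-0.18) and Aox3 (-0.13) among the lower ones. Stac3 and Aox3 were near background in both DEN groups, which limits any difference there. Between PBS week 18 and PBS week 12 no feature was called (limma, 1568 at an unadjusted p under 0.05).

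**Figure D5:**
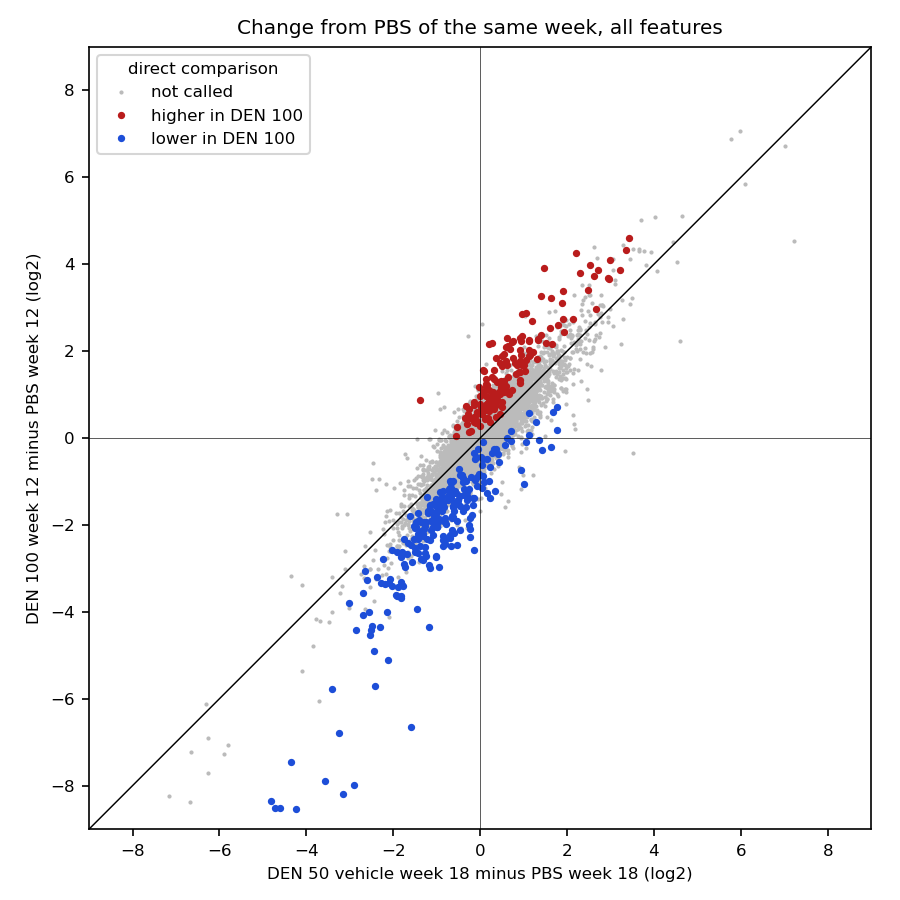
Log2 change of every one of 19339 features from PBS of the same week, for DEN 50 vehicle week 18 (horizontal) and DEN 100 week 12 (vertical); the diagonal marks equal change, and red and blue points were called higher and lower in the direct comparison. Most points lie near the diagonal (r = 0.858), and features that fell below PBS in both groups make up the lower left.

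Features called in opposite directions numbered 4: Col14a1, Tnfrsf11b, Lipt2 and a probe without a gene name. Col14a1 fell by 1.06 on the log2 scale in DEN 100 and rose by 1.0 in DEN 50 vehicle. Tnfrsf11b, which encodes the decoy receptor osteoprotegerin, fell by 0.85 in DEN 100 (adjusted p = 0.034) and rose by 0.98 in DEN 50 vehicle (adjusted p = 0.017). Its direct difference was -0.98 (adjusted p = 0.085).

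The difference between the DEN groups relative to PBS of the same week was tested as an interaction in the same fit. It was called for 87 features (0.45%). The change from PBS was higher in DEN 100 for 26 of them (0.134%) and lower for 61 (0.315%). Of the 87, 78 were also called in the direct comparison. Rgn (-3.17, adjusted p = 6.3e-07), Car3 (-4.32, adjusted p = 0.0019), Cyp2c13 (-2.99, adjusted p = 0.0089) and Slco1b2 (-2.46, adjusted p = 0.0035) were the lowest among named genes, with Cyp2c12. The highest were Ms4a4a (2.05, adjusted p = 0.0022), Phlda3 (1.92, adjusted p = 0.0041), Ampd3 (1.87, adjusted p = 0.031), Ccng1 (1.81, adjusted p = 0.0069) and Cbr3 (1.50, adjusted p = 0.0023). Of the p53 targets, 5 of 25 were called higher. Of the secreted protein genes, 8 of 58 were called lower, and of the P450 genes 5 of 64. Cyp2c12, the female-specific P450 of rat liver, stood at 13.59, 13.27 and 14.24 in DEN 100 and 13.92, 14.34 and 14.40 in DEN 50 vehicle, which overlap (-0.52, adjusted p = 0.66). Its PBS level was 11.47 ± 0.92 (SD, n = 3) in week 12 and 9.62 ± 0.18 (SD, n = 3) in week 18, and relative to them the difference was -2.37 (adjusted p = 0.039).

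DEN 50 week 12 places the groups by dose at a fixed week and by week at a fixed dose. DEN 100 differed from it in 1814 features (9.38%) and DEN 50 vehicle in 105 (0.543%). These comparisons share the DEN 50 week 12 arrays, so their values are given side by side. Rgn was at 12.57 ± 0.12 (SD, n = 3) in DEN 50 week 12, from which DEN 50 vehicle differed by -0.43 (adjusted p = 0.34) and DEN 100 by -3.25 (adjusted p = 2.6e-10). Ccng1 was at 10.77 ± 0.39 (SD, n = 3), with differences of 0.63 (adjusted p = 0.24) and 1.94 (adjusted p = 5.7e-06). Cp, Col14a1, Oit3 and Cxcl9, chosen after their values were seen, were within 0.25 log2 units of DEN 50 week 12 in DEN 50 vehicle and not called, and between -1.65 and -1.42 in DEN 100, where all 4 were called.

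Other genes had moved by week 18 at 50 mg/kg. Ms4a4a was higher in DEN 50 vehicle than in DEN 50 week 12 by 1.46 (adjusted p = 0.0053), and in DEN 100 by 3.10 (adjusted p = 1.1e-08). Fads1 was lower by -1.90 (adjusted p = 0.00059) and by -3.14 (adjusted p = 1.2e-08). S100a6 was higher by 1.38 (adjusted p = 0.00054) and by 2.26 (adjusted p = 9.1e-09), Lpl by 1.16 (adjusted p = 0.044) and 2.75 (adjusted p = 3.2e-07), and Slco1b2 was lower by -1.38 (adjusted p = 0.034) and -3.69 (adjusted p = 2.6e-08). These 5 genes were chosen after their values were seen, and their group means stood in the order of nominal cumulative dose, 600, 900 and 1200 mg/kg.

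By list, the median change from PBS of the same week in DEN 50 week 12, DEN 50 vehicle and DEN 100 was -1.60, -2.32 and -3.07 for male-biased genes. It was -0.42, -0.78 and -1.16 for bile acid genes, -0.30, -0.68 and -1.08 for P450 and drug metabolism, and 1.15, 1.49 and 2.12 for preneoplastic and oncofetal genes. NRF2 target enzymes stood at 1.09, 1.09 and 1.07, and cell cycle genes at 0.45, 0.51 and 0.59. The p53 targets stood at 0.15, 0.04 and 0.31. Further lists were farthest from PBS in DEN 50 vehicle, and not every list is given here. Fibrillar collagens and matrix stood at 0.68, 0.99 and 0.50, and macrophage and Kupffer cell markers at 0.38, 1.06 and 0.67. MHC class II genes stood at 0.75, 1.52 and 1.13, and lipogenesis and desaturation at 0.01, -1.31 and -1.01. The first and last of each triplet share the PBS week 12 arrays. Vehicle injections, the week and the length of exposure differ together between DEN 50 week 12 and DEN 50 vehicle and cannot be told apart.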

How the data were processed

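The 21 arrays are Illumina bead arrays of liver total RNA, extracted with TRIzol per the labels' protocols. The authors deposited a table of raw intensity and a table of normalized intensity. The method behind the latter was not given in the sources used here, so the raw intensities were used. Array medians ran from 105 to 186.9 in the former and from 135.5 to 136.8 in the latter. After normexp correction with an offset of 50 (limma 3.58.1 in R 4.3.3), values were quantile normalized on the log2 scale. A probe was tested if it exceeded the 40th percentile of its own array on 3 or more arrays, and each gene was read from its brightest probe. The platform annotation gives 13793 of 22523 probes 1 gene symbol and 8730 none, and RefSeq GRCr8, which also supplied the promoters, holds the Entrez identifiers of 13752.

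One limma fit covered 7 groups of 3 arrays, with 14 residual degrees of freedom. Moderated tests were Benjamini-Hochberg adjusted over 19339 features, and the procedure was tested on simulated data. Named genes were the 10 highest and 10 lowest called without overlap, 5 and 5 of the interaction, up to 4 per list, genes chosen by name and the 10 largest changes with like levels. Not every one is printed. Other called list members, Bax, Perp, Gadd45a, Tnfrsf11b and Lipt2 were chosen after their values were seen. Members and lists were chosen with earlier results of these data known. The promoter motifs, searched on both strands, were the p53 half-site, TTNCGCAA (C/EBP), TGACNNNGC (NRF2), GTTAATNATT (HNF1) and TTCNNNGAA (STAT5). The STAT5 letters lay in 8.87% of windows and in none of the 6 higher p53 targets. They lay in 2 of the 15 windows of the 10 lowest and 10 highest genes (Ms4a4a and Slco1b2). Of the 16 windows of the lower secreted protein genes, 2 held them (Itih4 and Vtn).

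Results were recomputed from the authors' normalized table, without background correction, with median or bright-probe scaling, without the filter or with a stricter one (60th percentile, 6 arrays), with a trended robust variance, with array weights, on the compared arrays alone, with a minimum log2 difference of 1, with probes averaged, and without each array of DEN 100, DEN 50 vehicle and both PBS groups in turn (for the direct difference of single genes, of the DEN groups alone). Arrays of the other groups were not left out.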

Additional observations from a re-analysis of the deposited data

Results flagged for a closer look

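The change from PBS of the same week differed between DEN 100 week 12 and DEN 50 vehicle week 18 by the interaction test. This change was higher in DEN 100 for 26 features and lower for 61. Among named genes, the difference of the changes was -3.175 for Rgn (limma, adjusted p = 6.3e-07), -4.321 for Car3 (0.0019), -2.991 for Cyp2c13 (0.0089), -2.459 for Slco1b2 (0.0035) and -2.374 for Cyp2c12 (0.039). It was 2.054 for Ms4a4a (0.0022), 1.92 for Phlda3 (0.0041), 1.866 for Ampd3 (0.031), 1.81 for Ccng1 (0.0069) and 1.505 for Cbr3 (0.0023). For Cyp2c12 the DEN arrays overlapped and the PBS arrays of weeks 12 and 18 did not. Groups of 3 arrays were not tested for single outlying arrays.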

How the results depend on the processing

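No paired analysis was possible because the compared groups share no array numbers. The 395 features called became 95 with median scaling, 139 with bright-probe scaling, 20 on the compared arrays alone and 155 with a log2 difference of at least 1. The 87 called relative to PBS became 23, 28 and 38 under the first 3 of these, 55 without PBS week 12 array PBS_110 and 56 without PBS week 18 array PBS_8. The 110 list members called became 33, 50, 8 and 60. Leaving out each array of the DEN 100, DEN 50 vehicle and PBS groups gave 309 to 457, 55 to 115 and 86 to 132. The share of higher calls was 38.99%, and 17.89% with median scaling. The median of all features was 0.105 with bright-probe scaling, and relative to it the secreted protein genes stood at -0.71 and the p53 targets at 0.18. Secreted protein genes called lower numbered 6 with median scaling, 11 with bright-probe scaling and 2 on the compared arrays alone, against 23. Of 73 named genes called, 5 (Bdh1, Hrg, Hsd17b2, Klkb1 and Rgn) were called under each of the 16 alternatives run for single genes, 68 lost the call under at least 1, and none changed direction. The causes of these changes were not tested. The compared arrays alone leave fewer samples for the spread. An array's lowest correlation within its group was 0.975 to 0.978 for the compared arrays and 0.983 to 0.988 for the others. Signal over background limits differences of genes near 6.38, and 8 called genes lay there in DEN 100 and 3 in DEN 50 vehicle.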
